A study of Gallus gallus with 4 samples.

Results

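The alpha-type and beta-type globin genes were followed in chick area vasculosa over 4 stages of the Hamburger-Hamilton series, from HH10 through HH11 and HH12 to HH13. Members were taken by gene name, and the set was chosen with earlier results of these data known. The alpha-type members were HBZ, HBAD and HBAA, and the beta-type members HBB, HBE and HBG1, 6 of 17008 genes in the deposited table. The area vasculosa is the ring of extraembryonic yolk sac in which the first blood islands and vessels form. There was 1 library of total RNA per stage, so no value below has a standard deviation and no difference between stages could be tested across embryos. The labels name no treatment, strain or genotype, and no source used here says how many embryos went into a library.

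Haemoglobin is a tetramer of alpha-type and beta-type globin chains that each bind haem, the iron-holding group that carries oxygen. Birds keep the alpha-type and beta-type genes in separate clusters on different chromosomes, and each cluster holds embryonic genes beside genes used later in life. The first red cells of the chick, the primitive erythroid cells, arise in the blood islands of the area vasculosa and make embryonic globins.

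Expression is given as FPKM, in its plain form the fragments of a gene divided by its transcript length and by the library's mapped fragments. Levels can thus be set against one another within a library and between genes. How the deposited libraries were scaled is not stated. Total FPKM ran from 762831 in HH11 to 952203 in HH10, and 10673 to 11308 rows reached 1 FPKM per library. The number of reads is unknown, so no counting error can be given. The HH10 library stood apart from the others in ribosomal RNA and in a W-linked gene. Rows named 5.8S ribosomal RNA took 5.94% of its total FPKM, against 0.574% to 1.46% in the other libraries. HINTW, a gene of the female-specific W chromosome, was listed at 0 in HH10 and had 1530, 2389 and 1604 FPKM in HH11, HH12 and HH13. For this reason differences of HH13 from HH10 are also given from HH11. HH11 is not a sounder reference, as it had the lowest total FPKM and the fewest rows at 1 FPKM, 10673. Of the 11773 genes that reached 1 FPKM, 1543 were at least 2-fold higher and 634 lower in HH13 than in HH11. The counts for HH13 against HH10 were 1106 and 478.

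The members sit in clusters that the deposited coordinates, on build galGal4, show in part. HBG1, HBB and HBE lie side by side on chromosome 1, at 193716133 to 193717673, 193723743 to 193726040 and 193727983 to 193730347. HBE1, a further beta-type gene that is not a member, lies between HBG1 and HBB. HBZ lies on chromosome 14 at 12090645 to 12099745, and a second row named HBZ, on an unplaced scaffold, was listed at 0 in all 4 libraries. HBAA and HBAD lie together on another unplaced scaffold, at 5125 to 5931 and 8017 to 9433. RefSeq's table for the later assembly GRCg7b places HBZ, HBAD and HBAA next to one another on chromosome 14. That table gives HBG1 as another name of HBBR and HBBH as another name of HBE1. It matched 5 of the 6 member names and not HBB, and it has HBBA in the place between HBE1 and HBE.

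HBAA and HBAD encode the alpha-A and alpha-D chains, which the chicken uses in embryonic and later red cells. HBAA had 729, 182, 5780.1 and 12477 FPKM in stage order, and was the highest globin in HH10 and HH11. HBAD had 113, 22.1, 1208 and 2887 FPKM. HBZ, the pi-globin gene and the embryonic member of the alpha cluster, had 3.69, 0.947, 52.2 and 132 FPKM. Each alpha-type gene was lowest in HH11 and highest in HH13, and the order HBAA, HBAD, HBZ was the same in the 4 libraries. The locus deposited for HBZ spans 9101 bp, whereas RefSeq gives a gene of 1632 bp. FPKM divides by transcript length, which neither span gives. The part of transcript length in the low level of HBZ was not tested.

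HBG1 and HBE encode the embryonic beta-type chains rho and epsilon of the chick. HBG1 had 463, 51.3, 6027 and 13729.5 FPKM in stage order, and was the highest globin in HH12 and HH13. HBE had 316, 36.1, 1934 and 4866 FPKM. HBB had 7.80, 0.363, 75.9 and 731 FPKM. HBBA, which RefSeq has at the corresponding place, is known as the gene of the adult beta-A chain. The beta-type genes too were lowest in HH11 and highest in HH13, in the order HBG1, HBE, HBB in every library. HBE1 was listed at 0 in HH10 and HH11 and had 0.518 and 0.849 FPKM in HH12 and HH13, so it stayed under 1 FPKM between HBG1 and HBB.

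**Figure D1:**
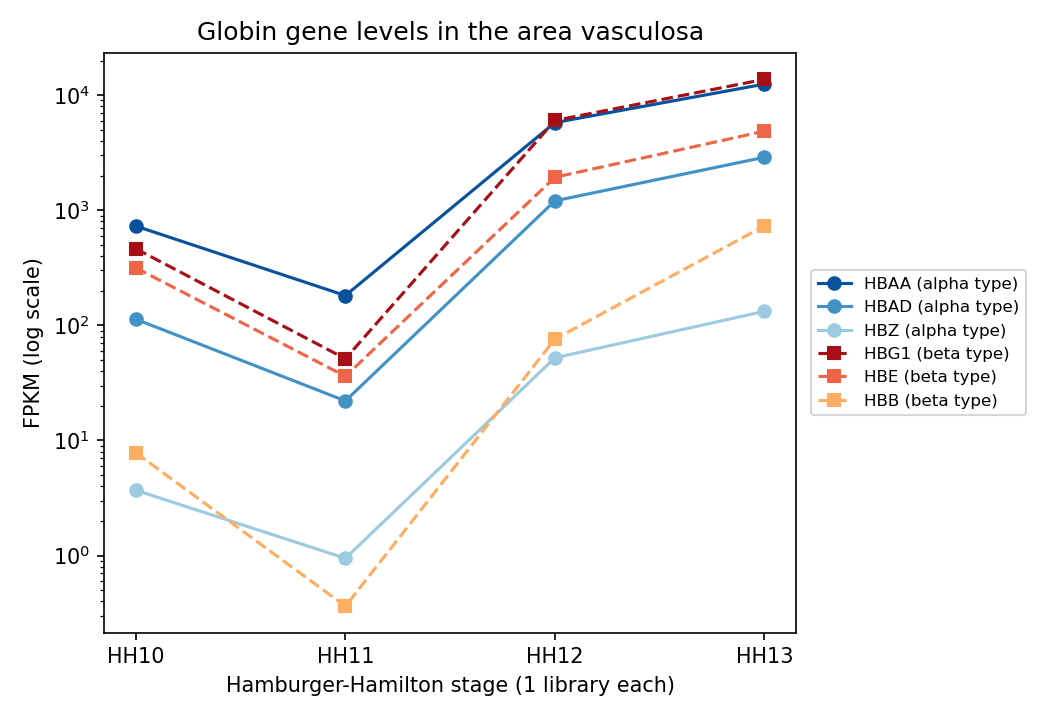
FPKM (log axis) of the 6 globin genes in the 4 libraries, 1 library per stage, with circles and full lines for alpha-type genes and squares and dashed lines for beta-type genes. All 6 genes are lowest in HH11, and HBG1 and HBAA lie close together at the top in HH12 (6027 and 5780.1 FPKM) and HH13 (13729.5 and 12477 FPKM).

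The rank of the globins among all genes moved with these levels. In stage order HBAA ranked 140, 551, 17 and 11 of 17008 genes. The ranks of HBG1 were 198, 1985, 16 and 8. HBE reached rank 20 and HBAD rank 38 in HH13, while HBB and HBZ reached ranks 152 and 714. Summed over the members, globin FPKM was 1632, 292, 15077 and 34823 in stage order. HBAA and HBG1 alone took 1.40% and 1.54% of the total FPKM in HH13, and the 6 members 0.0383% of it in HH11 and 1.81% in HH12.

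At the first step every member was lower. Differences between libraries were taken on values of log2(FPKM + 1). On this scale genes near or under 1 FPKM differ less than their FPKM do. A gene was called at 2-fold or more. All 6 globins were at least 2-fold lower in HH11 than in HH10, with a median log2 difference of -2.50, against 4.32% of the 11773 genes that reached 1 FPKM, 2.17% being higher, and an all-gene median of 0.014. The alpha-type genes differed less than the beta-type genes, except that with a pseudocount of 5 HBB, at -1.26, differed less than HBAD, at -2.13, and HBAA, at -1.98. HBZ, HBAA and HBAD had 3.90-fold, 4.02-fold and 5.13-fold less FPKM in HH11 than in HH10. HBE, HBG1 and HBB had 8.74-fold, 9.02-fold and 21.5-fold less. HBB and HBZ were under 1 FPKM in HH11, so their folds rest on very low values. The log2 difference of HBZ, -1.27, lay just inside the middle 95% of all genes, which ran from -1.28 to 0.94, and the other members lay below it. Summed, the alpha-type genes had 205 FPKM in HH11, against 846 FPKM in HH10, and the beta-type genes 87.8 FPKM in HH11, against 786 FPKM in HH10.

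The second step was the greatest. All 6 members were at least 2-fold higher in HH12 than in HH11, with a median of 5.71, against 4.42% of all genes tested and an all-gene median of 0.0016. HBG1 had 117-fold more FPKM in HH12 and the greatest log2 difference, 6.85, of the 11773 genes. HBB had the larger fold in FPKM, 209, from a level under 1 FPKM in HH11, and with a pseudocount of 0.1 its log2 difference, 7.36, was above that of HBG1, 6.87. With a pseudocount of 1, HBB, HBAD and HBE followed at ranks 3, 4 and 5 of the same order, with log2 differences of 5.82, 5.71 and 5.70, and HBAA and HBZ stood at ranks 9 and 12. HBAA, which had kept the highest level in HH11, had the smallest fold of the members, 31.8. Leaving HH11 aside, all 6 were also at least 2-fold higher in HH12 than in HH10, with log2 differences of 2.61 for HBE to 3.70 for HBG1, against 2.55% of all genes.

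At the third step the members were again all at least 2-fold higher, in HH13 against HH12, with a median of 1.29, against 8.53% of all genes higher and 2.95% lower, and an all-gene median of -0.0026. Of the 6, 5 lay close together. HBAA, HBG1, HBAD, HBE and HBZ had 2.16-fold, 2.28-fold, 2.39-fold, 2.52-fold and 2.54-fold more FPKM in HH13. HBB stood apart from them, with 731 FPKM in HH13, against 75.9 FPKM in HH12, a 9.63-fold difference and rank 32 of all genes tested. The other 5 lay inside the middle 95% of all genes, which ran from -1.07 to 1.62, and the HBB difference of 3.25 lay above it.

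From the first stage to the last, all 6 members were at least 2-fold higher in HH13 than in HH10, against 9.39% of all genes tested. HBB had the greatest log2 difference, 6.38, and HBE the smallest, 3.94. The folds in FPKM were 93.7 for HBB, 35.9 for HBZ, 29.7 for HBG1, 25.5 for HBAD, 17.1 for HBAA and 15.4 for HBE. With HH11 in place of HH10 all 6 were again at least 2-fold higher, against 13.1% of all genes, with a median of 7.0 in place of 4.75. That outcome was fixed beforehand, because all 6 were lower in HH11 than in HH10. In bulk tissue, a different number of red cells and a different amount of globin RNA per red cell cannot be told apart at any of these steps.

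**Figure D2:**
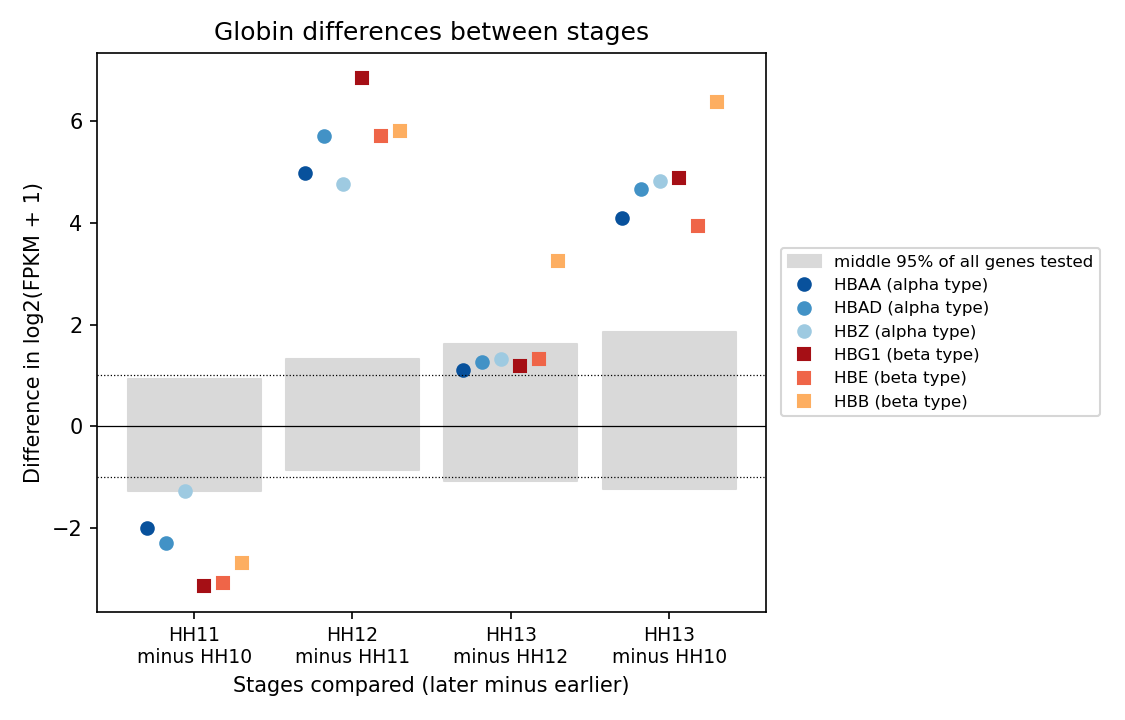
Difference in log2(FPKM + 1), later minus earlier stage, for the 6 globin genes (circles alpha type, squares beta type) in 4 comparisons of 1 library each, with the middle 95% of the 11773 genes tested as grey bars and dotted lines at 2-fold. At HH13 minus HH12 HBB, at 3.25, lies above the other members, which lie at 1.11 to 1.33.

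The authors' deposited table gives a p-value and a q-value for each pair of stages, from a test that has no replicate of a stage. For HH10 and HH11 it lists q-values of 0.0108919 for HBG1 and HBE, 0.0270362 for HBAA and HBAD, 0.589167 for HBB and 0.998906 for HBZ. Those for HH11 and HH12 in the authors' deposited table are 0.0108919 for HBG1, HBE, HBAA and HBAD, with 0.561092 for HBB and 0.674729 for HBZ, the genes under 1 FPKM in HH11. For HH12 and HH13 the authors' deposited table has HBB at 0.0108919, HBZ at 0.651856 and the remaining 4 members at 0.998906. For HH10 and HH13 the authors' deposited table has a q-value under 0.05 for 3 members, HBB, HBAD and HBAA, while HBG1 is at 0.118663, HBZ at 0.123658 and HBE at 0.165725. For HH10 and HH12 the authors' deposited table has 2 members under 0.05, HBAD at 0.0108919 and HBAA at 0.0453287. In that pair HBB is at 0.0502126, HBG1 at 0.0540038, HBE at 0.0711336 and HBZ at 0.276084. The q-values of the members for HH11 and HH13 are the same as those for HH11 and HH12.

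The balance of alpha-type to beta-type globin was taken as the ratio of summed FPKM within a library, which does not depend on how libraries are scaled. In stage order it was 1.08, 2.33, 0.876 and 0.802. Alpha-type genes thus made 51.8%, 70.0%, 46.7% and 44.5% of the globin FPKM in stage order. HH11, the library with the least globin, was the one in which alpha-type FPKM was more than 2-fold above beta-type. In HH12 and HH13 beta-type FPKM was the higher. The ratio rests mainly on HBAA and HBG1, whose own ratio was 1.58, 3.54, 0.959 and 0.909.

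Within each type the shares moved as well. HBG1 made 58.9% and 58.4% of beta-type FPKM in HH10 and HH11, and 75.0% and 71.0% in HH12 and HH13. HBE made 40.1%, 41.1%, 24.1% and 25.2% in stage order. HBG1 thus had 1.47 and 1.42 times the FPKM of HBE in HH10 and HH11, and 3.12 and 2.82 times in HH12 and HH13. HBB made 0.992%, 0.413%, 0.945% and 3.78% of beta-type FPKM. On the alpha side, HBAA made 86.2%, 88.8%, 82.1% and 80.5%, and HBAD made 13.4%, 10.8%, 17.2% and 18.6%. HBZ stayed between 0.436% and 0.855% of alpha-type FPKM. Globin genes resemble one another, so how fragments were divided between them is uncertain, and this touches each of these shares.

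**Figure D3:**
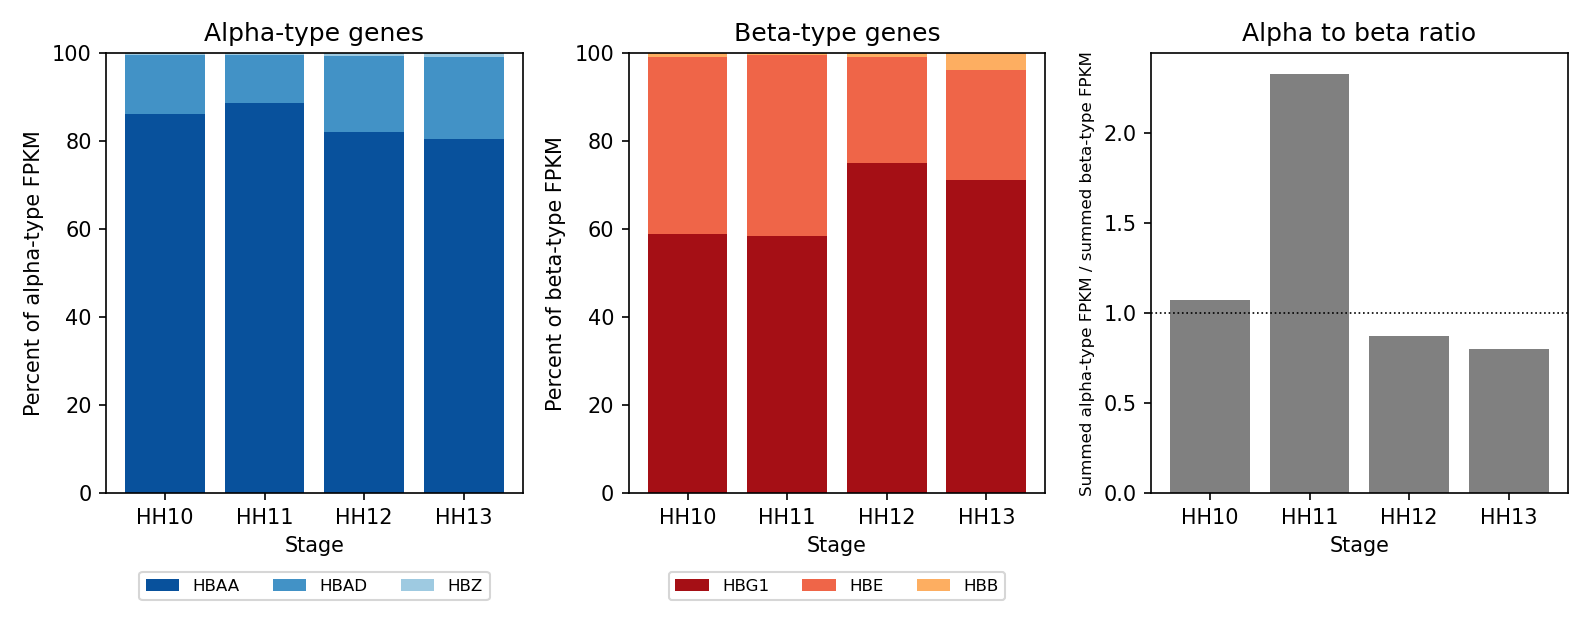
Share of each gene in the summed FPKM of its type, in percent (left, alpha type; middle, beta type), and the ratio of summed alpha-type to summed beta-type FPKM with a dotted line at 1 (right), in the 4 libraries. HBG1 takes 75.0% of beta-type FPKM in HH12 and 58.4% in HH11, and the alpha to beta ratio is highest in HH11 at 2.33.

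Of the listed genes known to act on globin transcription, at most 4 were called at any of the 3 steps with a pseudocount of 1 and FPKM as deposited. With a pseudocount of 0.1, 5 were lower at the first step and 5 higher at the second. Of 28 regulators that reached 1 FPKM, 4 were at least 2-fold lower and 0 higher in HH11 than in HH10, against 4.32% of all genes lower and 2.17% higher, with a list median of -0.023. At a common total FPKM the same median was 0.25. The 4 lower genes, named here because they were the ones called, were SCL, LMO2, GFI1B and CBFA2T3. SCL, the TAL1 gene, encodes the erythroid and endothelial factor that binds DNA with GATA proteins, and had 64.5, 16.6, 67.5 and 105 FPKM in stage order. LMO2, which bridges that complex, had 58.7, 13.4, 45.5 and 86.9 FPKM. GFI1B, an erythroid repressor, had 15.4, 1.64, 17.4 and 29.5 FPKM, and CBFA2T3, a corepressor of the complex, had 5.94, 1.81, 3.76 and 10.5 FPKM.

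SCL, LMO2 and GFI1B were the 3 regulators at least 2-fold higher in HH12 than in HH11, with 0 lower, against 4.42% and 1.58% of all genes. In HH13 against HH12, CBFA2T3 and NR2F2, a nuclear receptor of embryonic veins, were at least 2-fold higher and 0 lower, 2 of 28 genes, against 8.53% of all genes higher. In HH13 against HH11, 6 of 28 were at least 2-fold higher, against 13.1% of all genes. In HH13 against HH10, 1 of 28 was at least 2-fold higher and 0 lower, against 9.39% of all genes higher. That gene was IKZF1, a lymphoid and erythroid zinc finger factor, with 0.142, 0.170, 0.50 and 1.5 FPKM in stage order. IKZF1 was counted only because it reached 1 FPKM in HH13, which fixed the direction of its difference. TCF12, a partner of SCL, had the highest mean of the list, with 106, 99.3, 99.3 and 124 FPKM. ZFPM1, the GATA partner FOG1, had the most negative log2 difference, -0.34, with 22.4, 21.2, 15.4 and 17.5 FPKM. BCL11A, a repressor of fetal globin in humans, had 0.664, 1.05, 0.734 and 0.715 FPKM. GATA1 and KLF1 were not analysed here.

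Genes of haem synthesis and iron uptake, which supply the other part of haemoglobin, differed less than the globins. At HH11 against HH10, 0 of 24 were at least 2-fold apart in either direction, against 4.32% of all genes lower and 2.17% higher. A count of 0 among 24 genes is near those shares. The median was -0.19, or 0.11 at a common total FPKM. In HH12 against HH11, 7 were called higher and 0 lower, against 4.42% and 1.58% of all genes, the median being 0.41. In HH13 against HH12, 3 of 24 were higher and 0 lower, against 8.53% and 2.95% of all genes, the median being 0.43. In HH13 against HH11, 11 of 24 were at least 2-fold higher and 1 lower, against 13.1% of all genes higher and 634 of 11773 lower. In HH13 against HH10, 12 of 24 were at least 2-fold higher and 0 lower, against 9.39% and 4.06% of all genes. SLC25A37, the mitochondrial iron importer, had the greatest difference of the list, with 9.90, 7.69, 33.1 and 98.0 FPKM in stage order. STEAP3, which reduces iron taken up with transferrin, had 4.73, 2.23, 15.6 and 35.5 FPKM. Of the synthesis enzymes, UROS had 9.47, 5.99, 21.5 and 36.2 FPKM, and FECH, the last enzyme of the pathway, had 141, 105, 104 and 135 FPKM. FTH, the ferritin heavy chain that stores iron, had the highest mean, with 2080, 2041, 2284 and 4885 FPKM. FLVCR2 had the most negative log2 difference, -0.68.

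Red cell membrane and enzyme genes had medians of -0.53, 0.95 and 0.58 over the 3 steps. Of 18, 5 were at least 2-fold lower and 0 higher in HH11 than in HH10, or 3 lower at a common total FPKM, against 4.32% of all genes lower and 2.17% higher. In HH12 against HH11, 9 were at least 2-fold higher and 0 lower, against 4.42% and 1.58%. In HH13 against HH12, 4 were higher and 0 lower, against 8.53% and 2.95%. In HH13 against HH11, 11 were higher and 1 lower, against 13.1% of all genes higher and 634 of 11773 lower. In HH13 against HH10, 9 were higher and 2 lower, against 9.39% and 4.06%. The lower ones were TMOD1, which caps actin filaments, with 30.2, 10.01, 18.8 and 8.99 FPKM, and CA2, a carbonic anhydrase, with 762, 122, 430 and 263 FPKM. AQP1, which encodes a channel for water in red cells and vessel walls, had the greatest difference, with 1.10, 0.323, 18.9 and 222 FPKM. The highest mean belonged to a pyruvate kinase row named PKM, with 1187, 1491, 1030.0 and 650.25 FPKM, which matched the listed PKLR as an older symbol and is not particular to red cells.

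Markers of other cell types differed between the libraries to unlike extents. The shares of all genes to set them against are 4.32% lower at the first step, 4.42% higher at the second and 8.53% higher at the third. Of 15 yolk sac endoderm markers, 9 were at least 2-fold lower in HH11 than in HH10, 12 at least 2-fold higher in HH12 than in HH11, and 12 higher and 1 lower in HH13 than in HH12. The summed FPKM of the 16 measured was 13764, 5836, 18180 and 51539 in stage order, and FABP1 was listed at 0 until HH13. Of 16 endothelial markers, 4 were lower at the first step, 4 higher at the second and 13 higher at the third, with sums of 125, 74.6, 106 and 290.1 FPKM.

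The other marker lists were smaller, and the same shares of all genes apply to their counts at the 3 steps. Of 10 thrombocyte markers, 1 was lower at the first step, 3 were higher at the second and 2 at the third, with medians of -0.30, 0.83 and 0.44. Their sums, 139, 163, 218 and 242 FPKM, do not follow the median at the first step, where RAP1B had 93.2 FPKM in HH11, against 59.4 FPKM in HH10. Of 7 macrophage and leukocyte markers, 0 were lower at the first step, 1 was higher at the second and 4 at the third. Their medians were 0.069, 0.25 and 1.03, and sums over 9 measured were 9.16, 11.1, 15.7 and 33.9 FPKM. CSF1R, PTPRC and LAPTM5 reached 1 FPKM in HH13 alone, so the filter fixed that they were highest there. LAPTM5, with 0.671 FPKM in HH12 and 3.98 FPKM in HH13, was among the 4. Of 9 cardiac markers, 3 were lower at the first step, 2 higher and 1 lower at the second and 2 higher at the third, with medians of -0.71, -0.061 and 0.21. Sums over 10 measured were 188, 123, 162 and 472 FPKM, of which MYL4, a myosin light chain, made 380.4 FPKM in HH13. In HH13 against HH10, 2 of the 9 were higher and 3 lower, against 9.39% and 4.06% of all genes, with a median of -0.35. In HH13 against HH11, 2 were higher and 2 lower, with a median of 0.42. At that comparison 13.1% of all genes were higher and 634 of 11773 lower. Of 6 neural markers, 2 were lower at the first step, 0 were called at the second and 3 were higher at the third, with medians of -0.55, -0.85 and 0.80. Their sums were 51.1, 32.8, 30.7 and 74.8 FPKM, of which TUBB3, a tubulin of neurons, made 63.9 FPKM in HH13. In HH13 against HH10, 1 of the 6 was higher and 3 lower, against 9.39% and 4.06% of all genes, with a median of -0.82. In HH13 against HH11, 1 was higher and 1 lower, against the shares just given for that comparison, with a median of -0.10. The part of tissue makeup in the globin differences was not tested.

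**Figure D4:**
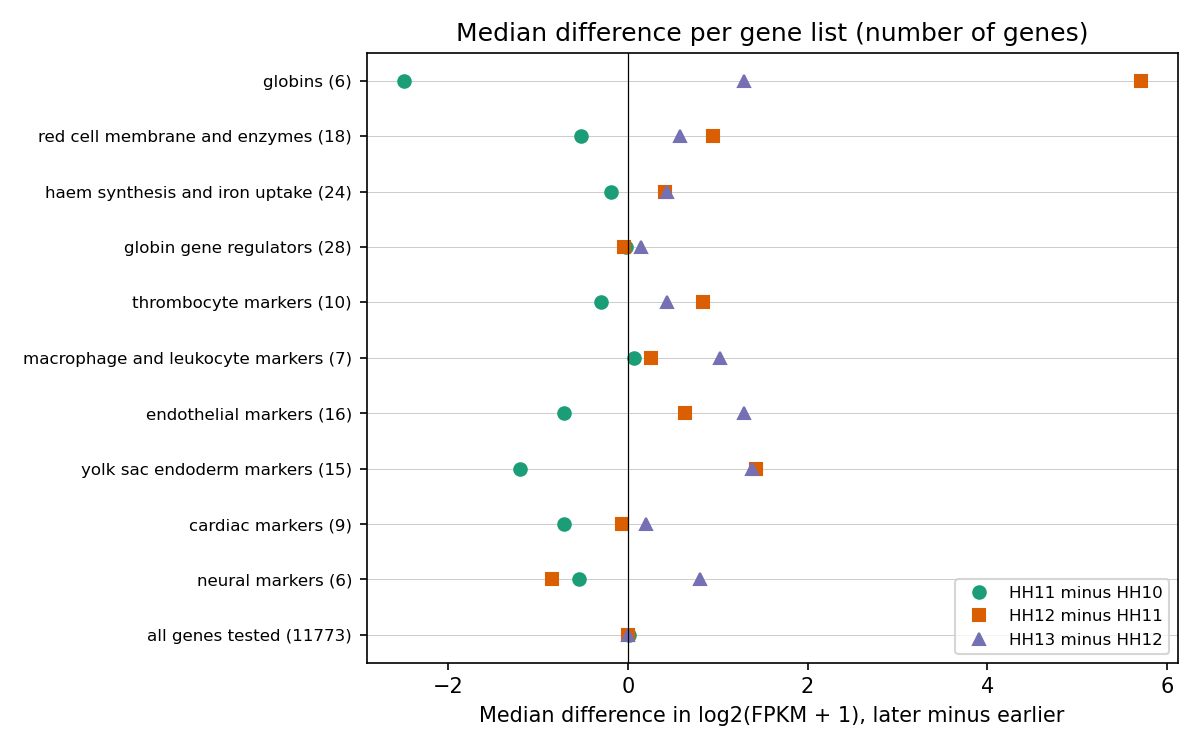
Median difference in log2(FPKM + 1), later minus earlier stage, for the globins, 9 other gene lists and all genes tested (number of genes in brackets), with circles for HH11 minus HH10, squares for HH12 minus HH11 and triangles for HH13 minus HH12. The globin medians are -2.50, 5.71 and 1.29, and the yolk sac endoderm medians are -1.20, 1.43 and 1.38.

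The 10 genes whose course was most like that of the summed globins were found by the root mean square difference between profiles of log2(FPKM + 1), each centred on its mean over the 4 libraries. In order they were SLC4A1, TSPO2, EPB42, RD, AQP1, OTC, H1F0, LUM, COL3A1 and SERPIND1. The difference was 0.69 for SLC4A1 and 1.15 for SERPIND1, against a median of 2.74 over 8220 candidate genes. Among the members it was 0.093 for HBAD to 0.90 for HBB. The members make up the summed profile, so their small differences from it are in part built in. SLC4A1, which exchanges chloride and bicarbonate across the red cell membrane, had 1.48, 0.633, 37.8 and 129 FPKM in stage order. TSPO2, an erythroid membrane protein gene, had 54.7, 7.16, 209.55 and 298 FPKM, and EPB42, a red cell skeleton protein gene, had 0.761, 0.145, 15.6 and 27.7 FPKM. H1F0, a linker histone of differentiated cells, had 4.54, 4.28, 55.4 and 85.5 FPKM. Its log2 difference in HH11 against HH10 was -0.070, and that of LUM was -0.83. SLC4A1, EPB42 and AQP1, all under 1 FPKM in HH11, were at -0.60, -0.62 and -0.67. Of the 10, TSPO2 alone, at -2.77, was lower by as much as the summed globins, at -2.48. LUM and COL3A1 are matrix genes of connective tissue, and OTC is an enzyme of the urea cycle. SERPIND1 encodes heparin cofactor II, a plasma protease inhibitor.

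The other members of the globin family had low values. CYGB, cytoglobin of many tissues, had 9.83, 2.84, 4.38 and 21.1 FPKM in stage order, and NGB, neuroglobin, had 1.03, 1.41, 0.941 and 3.08 FPKM. MB, the muscle oxygen store myoglobin, stayed between 0.111 and 0.709 FPKM. GBE was listed at 0 in HH10 and HH11 and had 0.257 and 0.241 FPKM in HH12 and HH13.

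Within 100 kb of a member on chromosome 1 there were 19 other rows, of which 5 reached 1 FPKM. Among these 5, 0 were at least 2-fold higher at any of the 3 steps, at which 2.17%, 4.42% and 8.53% of all genes were higher. A count of 0 among so few rows is near that background. FOLR1, a folate receptor gene on the HBG1 side, had 4.76, 7.08, 4.27 and 0.822 FPKM. STIM1, a calcium sensor gene on the HBE side, had 52.3, 91.0, 49.5 and 23.8 FPKM. HH13 was at least 2-fold below HH12 for both, 2 of 5 rows, against 2.95% of all genes lower. RRM1, a subunit of ribonucleotide reductase, lay between HBE and STIM1 and had 57.6, 51.8, 56.2 and 42.4 FPKM. On chromosome 14, 10 rows lay within 100 kb of HBZ and reached 1 FPKM, and 0 of them were at least 2-fold higher at any step, which is again too few rows to set apart from the background. The 2 rows named AXIN1, a Wnt pathway scaffold, share 1 deposited locus, so they are not separate neighbours. Both had lower levels in HH13 than in HH12 by 2-fold or more, 2 of 10 rows but 1 locus, against 2.95% of all genes lower. A further row of that locus, without a symbol, had a log2 difference of -0.97 and was not called. CGTHBA and MPG, which share a deposited locus next to HBZ, had 8.56 to 10.95 FPKM and 2.34 to 4.23 FPKM over the 4 libraries. The scaffold of HBAA and HBAD carried no other row.

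**Figure D5:**
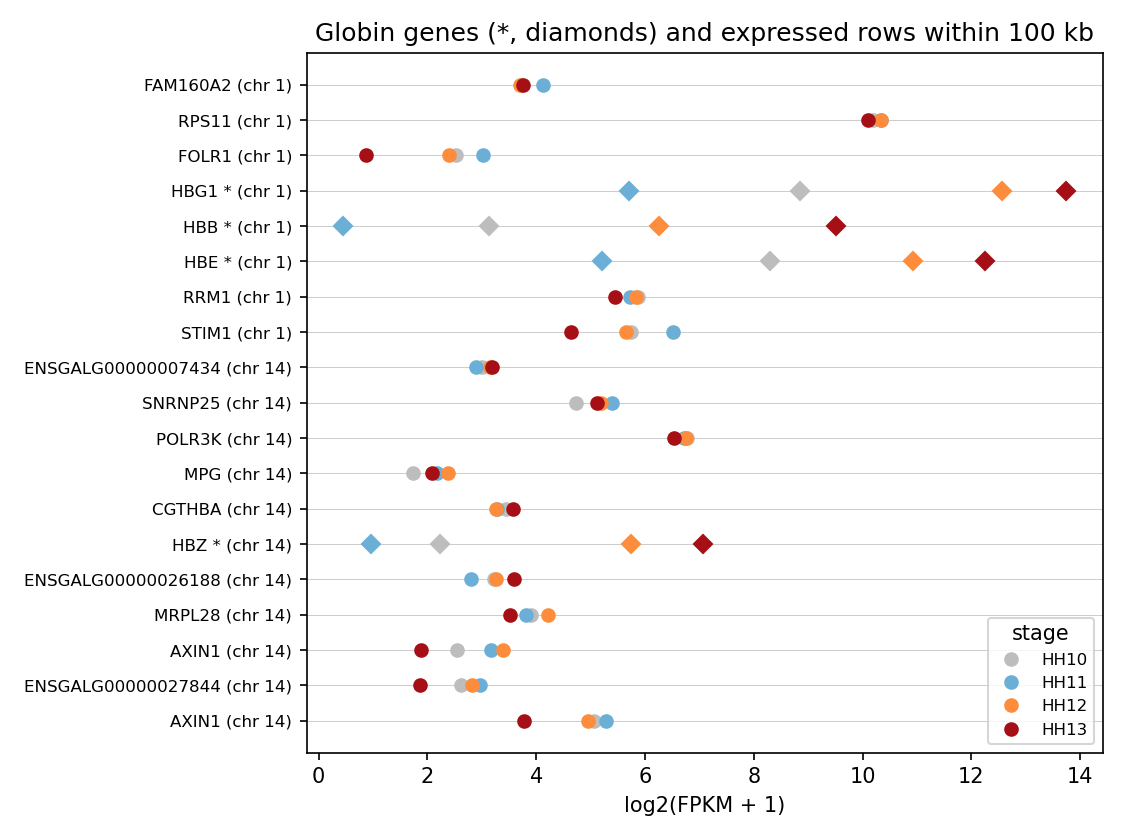
Level in log2(FPKM + 1) of HBG1, HBB, HBE and HBZ (diamonds) and of the rows within 100 kb of them that reached 1 FPKM (circles), in order along chromosomes 1 and 14, with 1 colour per stage. The diamonds spread widely from HH11 (51.3 FPKM for HBG1) to HH13 (13729.5 FPKM), while RRM1 lies between 42.4 and 57.6 FPKM. Some circles spread more than those of RRM1, as for STIM1 (23.8 to 91.0 FPKM) and FOLR1 (0.822 to 7.08 FPKM).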

How the data were processed

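Per the submitters' processing notes, reads were processed with TopHat2 2.0.8, Cufflinks and Cuffdiff on genome build galGal4. No source used here gives their annotation or library scaling. Per the file headers, the deposited values are FPKM in each library and, for each of 6 stage pairs, a p-value and a q-value of the authors. Because FPKM keeps no counts, depth is unknown and count tests were not used. An exact 0 can be a failed estimate.

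Of 17108 rows, 12583 carried a symbol. Summing rows that shared a symbol (80 symbols) left 17008 genes. Of these, 11773 reached 1 FPKM in some library and were compared as log2(FPKM + 1), called by size at 2-fold with no p-value. Of 184 entries in 10 gene lists, 145 were measured, 8 of them through an older symbol in RefSeq's GRCg7b table. Members and lists were chosen with earlier results of these data known. Named genes were the members, measured genes of the globin family, the 10 nearest profiles among symbols reaching 5 FPKM, and, of the haem, regulator and red cell lists, the highest mean and extreme HH13 to HH10 differences. Others were chosen after their values were seen. Deposited starts count from 0 and are printed 1 higher. Python 3.11.15, pandas 2.3.3, numpy 2.4.6 and matplotlib 3.10.9 were used. Calls and profile search were tested on simulated data.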

Additional observations from a re-analysis of the deposited data

How the results depend on the processing

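Pseudocounts of 0.1 and 5, 3 other scalings, the highest row per name and, for HH13 against HH10, HH11 or HH12 in place of an end stage kept the direction of all 24 member differences. In 155 of these 156 recomputed values the 2-fold call was kept as well, and HBZ in HH11 against HH10 was -0.55 with a pseudocount of 5. Some of these values could not differ. Taking the highest row per name could not move a member, because only HBZ had a second row and it was listed at 0. The values with HH11 or HH12 in place of an end stage repeat comparisons given above. Scaling by the median ratio of genes between libraries moved the all-gene median by 0.0038 (HH11 against HH10) and by -0.0016 (HH12 against HH11). The deposited values were thus already close to that scaling. A common total FPKM moved the all-gene median by 0.29 (HH11 against HH10) and by -0.11 (HH12 against HH11). The counts of all genes 2-fold higher and lower were then 506 and 322 at the first step, against 255 and 509 as deposited, and 445 and 265 at the second, against 520 and 186. Without globins in the total they were 504 and 319 at the first step. At the first step a pseudocount of 0.1 gave 426 and 1025, and 5 gave 109 and 194. At the second step 0.1 gave 893 and 407, and 5 gave 228 and 54. At the third step 1542 genes were higher with 0.1 and 403 with 5, with 172 lower for 5. For HH13 against HH10 a pseudocount of 0.1 gave 1541 higher and 716 lower, and 5 gave 541 and 207. With HH12 in place of HH13 and a pseudocount of 1 the counts were 300 higher and 306 lower, against 1106 and 478. Of the gene lists, red cell genes lower at the first step numbered 8 with a pseudocount of 0.1 and 3 with 5. Those higher at the third numbered 2 with a pseudocount of 5, against 4. Regulators higher at the second step numbered 5 with a pseudocount of 0.1, and at the third 0 with 5. Regulators higher in HH13 than in HH10 numbered 0 with a pseudocount of 5, 3 at a common total without globins and 6 with HH11 in place of HH10. Red cell genes lower in HH12 than in HH10 numbered 0, against 2 in HH13. Of the haem genes, 4 were higher in HH12 than in HH10, against 12 in HH13. The other counts of these 3 lists moved by at most 1 or stayed within 1.5 times. Counts of the marker lists were not recomputed.

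The alpha to beta ratio was highest in HH11 whichever member was left out. In stage order it was 0.148, 0.262, 0.157 and 0.156 without HBAA, 0.932, 2.08, 0.726 and 0.652 without HBAD, and 1.07, 2.32, 0.869 and 0.795 without HBZ. It was 2.62, 5.61, 3.50 and 2.77 without HBG1, 1.80, 3.96, 1.15 and 1.07 without HBE, and 1.09, 2.34, 0.884 and 0.833 without HBB. The ratio was lowest in HH13, except without HBAA or HBG1. Without ribosomal RNA and mitochondrial rows in the total, the globin share was 0.225%, 0.0468%, 2.20% and 4.95%. No paired analysis was possible because each stage had 1 library. With unknown depth, values under 1 FPKM, as of HBB and HBZ in HH11, have unknown precision.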
